A study of Saccharomyces cerevisiae with 4 samples.

Results

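Nucleoporins build the nuclear pore complex, and karyopherins carry proteins and RNAs through it. Their 38 genes were taken by symbol from the platform annotation, out of 5656 yeast genes with a probe set of their own: every NUP, POM or KAP symbol followed by digits alone, together with *NIC96*, *NSP1*, *NDC1*, *CRM1*, *CSE1*, *MSN5*, *SRP1*, *GLE1* and *GLE2*. Their transcripts were measured in MEY12A, a *ccw12*Δ strain, and in its parent SEY6210, the wild type. Both are haploid *MAT*α strains that share auxotrophic mutations in *URA3*, *LEU2*, *HIS3*, *TRP1* and *LYS2* and a mutation in *SUC2*. By its genotype MEY12A differs only in *CCW12*, a cell wall mannoprotein gene, which is interrupted by *URA3*. Cells were grown in YPD with added adenine to an optical density of 1, and 2 single-colour arrays were hybridized per strain, each with RNA pooled from several preparations. Both mutant arrays come from the 1 strain MEY12A, so any other difference of that strain from SEY6210 cannot be told apart from the loss of *CCW12*.

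The pore is a ring of many protein copies that spans the nuclear envelope. A membrane ring anchors it, an inner ring and the Y-shaped coat complexes form its scaffold, and nucleoporins rich in phenylalanine-glycine repeats fill the channel, which karyopherins cross with the help of the GTPase Ran. A filament-bearing platform on the cytoplasmic side finishes mRNA export, and a basket on the nuclear side docks cargo. In budding yeast the envelope stays closed in mitosis, so that nuclear proteins have to enter through these pores.

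A signal is the brightness of a probe set, scaled on each array, and a higher one stands for a larger share of the RNA; more of a transcript per cell and less of the others cannot be told apart. Its median was 141.2 and 144.4 on the *ccw12*Δ arrays and 122.4 and 117.9 on the wild-type arrays. *CCW12*, interrupted in MEY12A, read 4260 and 3919 on the mutant arrays, against 24314 and 24118 for wild type (limma adjusted p = 0.00379), and the marker *URA3* read 59.5 and 54.2 on the mutant arrays, against 3.9 and 6.7 for wild type. The description of wild type replicate 2 names SEY6211, a *MAT***a** strain, while its title names SEY6210. The α-specific gene *STE3* had 2985 there and 1840 in replicate 1. The **a**-specific *STE2*, *STE6* and *BAR1* lay between 1.2 and 40.3 on all 4 arrays. Within that dim range *BAR1* read 40.3 and 36.2 on the mutant arrays, against 1.7 and 1.2 for wild type. *STE2* read 30.4 and 40, against 15.9 and 18.6, and *STE6* 25.6 and 30.2, against 21.8 and 33. The **a**-factor gene *MFA1* read 117.1 and 33.4 on the mutant arrays, against 50.3 and 82.8 for wild type, and *MFA2* read 270.8 and 261.3, against 258.8 and 204.8 for wild type. Wild type replicate 1 stood apart. Its ratio of 3' to 5' signal for the *ACT1* control was 2.99, against 1.49 on each *ccw12*Δ array and 1.38 in wild type replicate 2. Over the 38 genes the log2 difference between arrays had an SD of 0.477 for the *ccw12*Δ pair and 0.603 for the wild-type pair. Genes on chromosomes II, IX and X had a median log2 ratio of 0.98 in *ccw12*Δ over the wild type (854 genes tested), whereas genes on the other chromosomes had 0.10 (4260 genes), and the median of all 5114 tested genes was 0.19. That median moved by -0.15 on the log2 scale after quantile normalization and by -0.188 when each chromosome was centred on its own median. It moved by -0.269 with arrays centred on all tested genes (median centring) and by -0.105 with centring on genes of the other chromosomes alone (outside centring). Of the genes called over the whole array 89.6% were higher in *ccw12*Δ, against 79.1% after quantile normalization, 64.1% after median centring, 78.4% after outside centring and 42.1% after chromosome centring. These chromosomes were known to stand apart before the genes were grouped by them, so the grouping is a description.

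All 38 genes passed the filter on dim signals. A single one, *NUP85*, was higher in *ccw12*Δ at an adjusted p under 0.05 from limma, and none was lower. Over all genes tested, 2.7% were higher and 0.313% lower, so that 1 of 38, or 2.63%, is near the background. At an unadjusted p under 0.05 from limma 6 of the 38 (15.8%) were higher and 0 lower, beside 17.1% and 3.48% of all genes. By the fold rule, which asks for a mean ratio of at least 2-fold with all 4 ratios of mutant to wild type in 1 direction, *NUP170*, *NUP85* and *NUP82* were higher and none was lower, beside 10.4% and 2.05% of all genes. With a stricter filter on dim genes, added after the data were seen, the test called those same 3 genes as higher among 36 tested and none as lower, beside 5.3% and 0.596% of 4532 genes. That filter left out *NUP42* and *CRM1*. The median log2 ratio of the 38 genes was 0.16 with an interquartile range of -0.19 to 0.36. Position on the chromosomes divided them in this setting, by a narrow gap. All 7 genes on chromosomes II, IX and X had log2 ratios between 0.65 and 1.67, and the other 31 lay between -1.11 and 0.59. The groups overlapped with a wild-type array left out. Without replicate 1 *NUP60* had 1.10 and *NUP192* 0.62, and without replicate 2 *POM34* had 1.46 and *NSP1* 0.43.

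**Figure D1:**
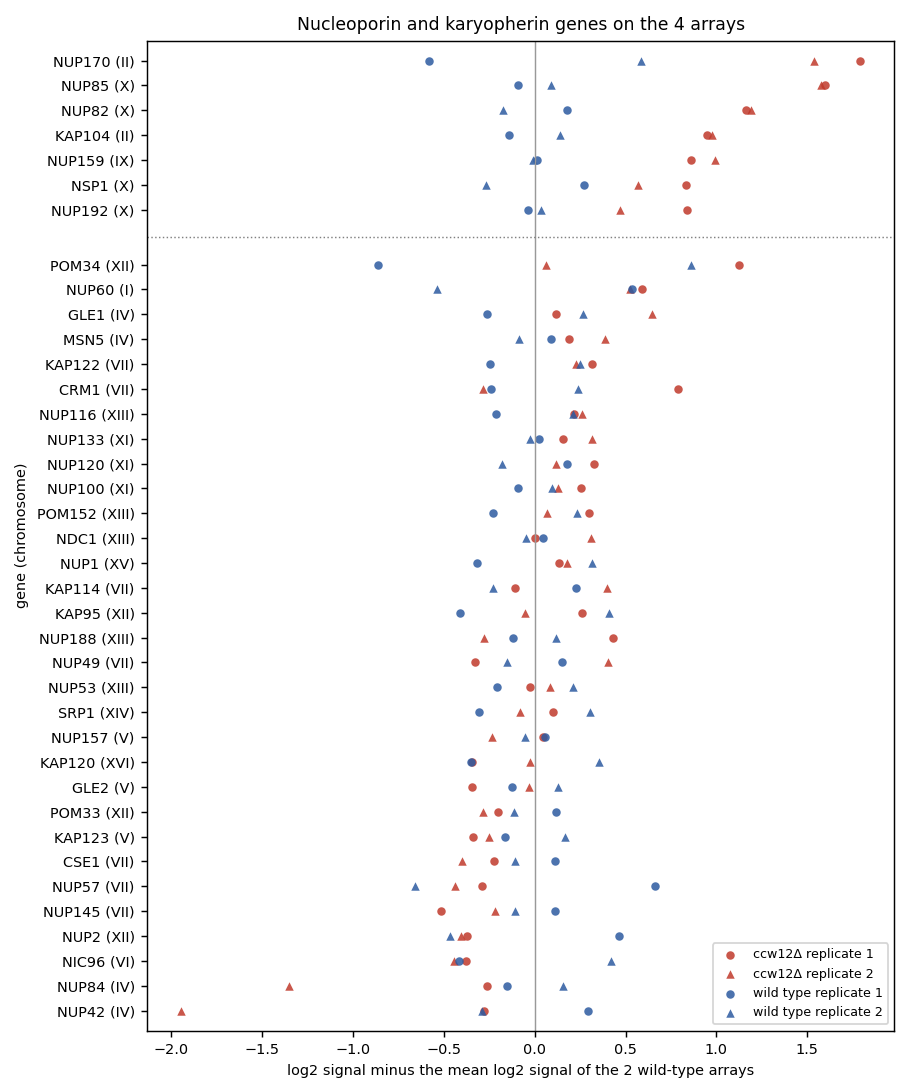
Log2 signal of each of the 38 genes on the 4 arrays, relative to the mean of both wild-type arrays (x axis, log2 units), with genes of chromosomes II, IX and X above the dotted line. On the upper 7 rows both *ccw12*Δ points lie to the right of both wild-type points; on most of the lower 31 rows the strains overlap.

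The 7 genes are *NUP170* and *KAP104* on chromosome II, *NUP159* on chromosome IX, and *NUP85*, *NUP82*, *NSP1* and *NUP192* on chromosome X. They are 18.4% of the 38 genes, and the same chromosomes hold 16.7% of all genes tested. Of the 28 ratios of a mutant to a wild-type array that these genes give, 28 were above 0 on the log2 scale. In each of the 7 both mutant signals exceeded both wild-type signals, as they did in 83.3% of all genes of these chromosomes, while the opposite held in 3.04%. The median over the 7 genes was 0.983 and 1.1 for mutant replicate 1 over wild type replicates 1 and 2, and 1.01 and 0.956 for mutant replicate 2. Which wild-type array served as the base hardly moved this median.

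*NUP85* encodes a subunit of the Y complex, the outer coat of the pore. Its signals were 1347 and 1326 on the mutant arrays, against 418.5 and 474.2 for wild type. By this probe set, the brightest of the gene, the arrays of each strain lay close together and far from those of the other strain. Its second set was less tight, with 989.6 and 746.7 on the mutant arrays, against 238.8 and 534.5 for wild type. By the brightest set the ratio was 3-fold, a log2 ratio of 1.59 ± 0.27 (SE, limma adjusted p = 0.0383). In 9 of 16 alternative settings the test called *NUP85*. Without the filter on dim genes the adjusted p was 0.0511, and with the mean over its probe sets it was 0.097. It was 0.124 without mutant replicate 1 and 0.191 without mutant replicate 2, when a single mutant array is left. On chromosome X, 84% of the tested genes had a lower log2 ratio than *NUP85*. After the median of each chromosome was subtracted on each array, *NUP85* had 0.52 (limma adjusted p = 0.442).

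The largest log2 ratio of the 38 genes in this setting belonged to *NUP170*, which encodes a large scaffold protein of the inner ring. Signals of 1603 and 1343 in *ccw12*Δ stood against 308.9 and 692.5 in the wild type. The strains did not overlap, but the wild-type arrays differed from each other by 1.16 on the log2 scale. The log2 ratio was 1.67 ± 0.40 (SE, limma adjusted p = 0.0668), with ratios per array pair between 0.956 and 2.38. It was 1.08 without wild type replicate 1 and 2.25 without wild type replicate 2. The test called it in 6 of 16 alternative settings, among them the stricter filter (limma adjusted p = 0.0466).

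*NUP82*, *NUP159* and *NSP1* encode subunits of the Nup82 complex, the cytoplasmic platform on which mRNA export ends. Nsp1p is also part of the central channel. All 3 genes lie on chromosomes IX and X. *NUP82* had signals of 243.2 and 248.5 on the mutant arrays, against 123 and 96.2 for wild type, a log2 ratio of 1.18 ± 0.28 (SE, limma adjusted p = 0.0623, and 0.0494 with the stricter filter). The dimmest of the 7 genes had almost equal mutant signals. *NUP159*, whose product binds the RNA helicase Dbp5p at the pore, had 495.2 and 542.1 on the mutant arrays, against 274.3 and 270.4 for wild type, a log2 ratio of 0.93 ± 0.27 (SE, limma adjusted p = 0.0981). For *NSP1* the signals were 907.4 and 756 on the mutant arrays, against 613.9 and 423 for wild type, with a log2 ratio of 0.70 ± 0.31 (SE, limma adjusted p = 0.253). Its strains came nearest to each other, since the lower mutant signal exceeded the higher wild-type signal by 0.3 on the log2 scale.

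*KAP104* encodes the yeast transportin, an import receptor for mRNA-binding proteins such as Nab2p. Its signals were 724.9 and 740 on the mutant arrays, against 341.6 and 414.6 for wild type. This gene was the only karyopherin gene of the 10 that lies on chromosomes II, IX and X. Its log2 fold change was 0.96 ± 0.28 (SE, limma adjusted p = 0.0988). *NUP192*, coding for the largest scaffold protein of the inner ring, had 458.1 and 355.1 on the mutant arrays, against 250.1 and 262.7 for wild type, a log2 ratio of 0.65 ± 0.28 (SE, limma adjusted p = 0.239). *NUP192* and *NSP1* lie within 5 tested genes of each other on chromosome X and had the smallest ratios of the 7. Without wild type replicate 1 the log2 ratios of *KAP104*, *NUP159* and *NSP1* were 0.82, 0.94 and 0.97. Without wild type replicate 2 they were 1.10, 0.92 and 0.43.

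**Figure D2:**
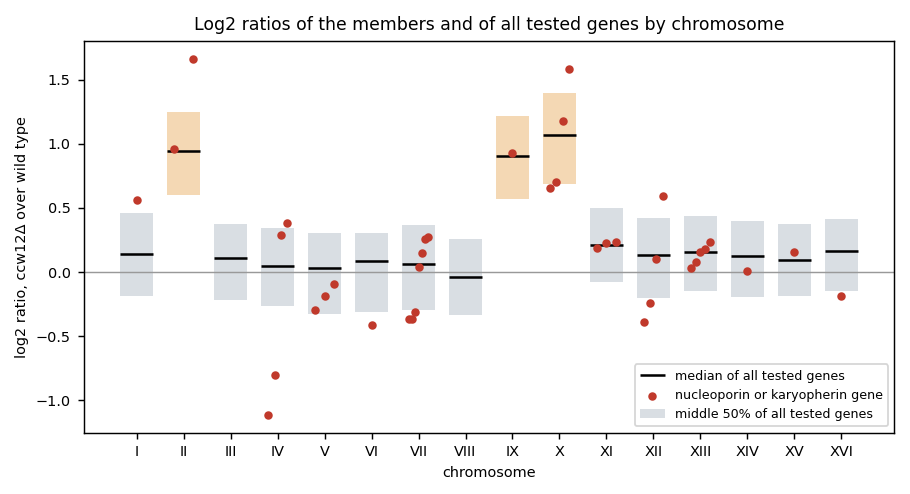
Log2 ratio of *ccw12*Δ over wild type (y axis) for each of the 38 genes (points) by chromosome (x axis), over the interquartile range of all tested genes (bars) and their median (lines). The 7 points on chromosomes II, IX and X lie between 0.65 and 1.67, around chromosome medians of 0.94, 0.90 and 1.07.

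Set against all genes of their own chromosomes, the 7 lay on both sides of the chromosome medians. The medians were 0.94 on chromosome II, 0.90 on chromosome IX and 1.07 on chromosome X, and 5 of the 7 genes lay above the median of their chromosome. *KAP104* and *NUP159* differed from it by 0.019 and 0.023, and *NUP82* by 0.11. *NUP170* lay 0.72 and *NUP85* 0.52 above it, while *NSP1* lay 0.37 and *NUP192* 0.41 below it. Their own median of 0.96 was near the 0.98 of all genes of these chromosomes. The fold rule was met by 3 of 7 and by 47.9% of those genes, and the test by 1 of 7 and by 13.8%. None was lower by either, beside 1.29% by the fold rule and 0.351% by the test. With the stricter filter the test called 3 of 7 higher and none lower, beside 25.4% and 0.511% of 783 genes there. With chromosome-centred arrays the test called none of the 7, and *NSP1* and *NUP192* turned negative, at -0.37 and -0.42 (adjusted p = 0.61 and 0.533 from limma).

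The genes beside each member were read as well, taking 5 tested genes on each side in chromosome order. Around the 7 genes the median log2 ratio of these 10 neighbours lay between 0.72 (*NSP1*) and 1.5 (*NUP82*). Around the other 31 it lay between -0.37 (*NUP2*) and 0.49 (*POM33*). The ranges did not overlap. The grouping was made with the raised ratios of these chromosomes known, so this restates it and is no further support. The flanks of *NUP85* had a median of 1.37 and those of *NUP170* 1.12, and all 10 neighbours of *NUP170* and of *NUP82* were above 0. *NUP157*, *GLE2* and *KAP123* lie within 5 tested genes of one another on chromosome V, as do *CSE1* and *KAP114* on chromosome VII, so these are not independent positions.

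**Figure D3:**
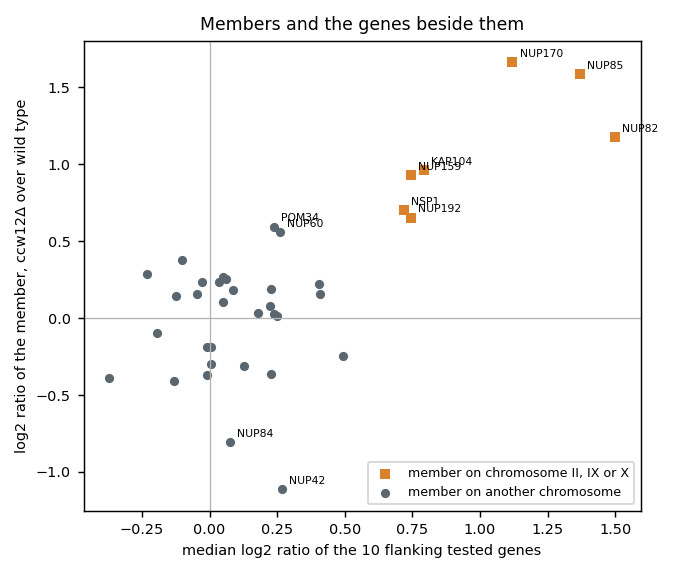
Log2 ratio of each of the 38 genes (y axis) against the median log2 ratio of the 10 tested genes that flank it (x axis); squares mark chromosomes II, IX and X. The squares lie at flanking medians of 0.72 to 1.5 and the circles at -0.37 to 0.49.

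Off chromosomes II, IX and X the 31 genes had a median log2 ratio of 0.08, beside 0.10 for all genes off them, and 19 were above 0. The test called 0 of them, and 0 had an unadjusted p under 0.05 from limma, beside 6.69% of all genes there that were higher and 3.85% lower at that p. Over these 4260 genes, 6 of them mitochondrial, 0.469% were called higher and 0.305% lower. The fold rule named none of the 31 in either direction, beside 2.91% higher and 2.21% lower, and with the stricter filter 0 of 29 were called, beside 1.09% higher and 0.613% lower. The sign of this median is not settled, since it was -0.10 after quantile normalization and -0.19 after median centring. Both mutant signals exceeded both wild-type signals in 4 of the 31 genes (12.9%, beside 28.6% of all genes there) and lay below both in 5 (16.1%, beside 17.2%). With 2 arrays per strain these data cannot show that the 31 genes were alike in both strains.

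In the Y complex, beside *NUP85*, *NUP84* had the second lowest log2 ratio of the 38 genes. Its signals were 454.6 and 213.9 on the mutant arrays, against 489.6 and 607.1 for wild type. Mutant replicate 2 alone was far from the rest, and the log2 ratio of -0.81 did not pass the test (standard error 0.39, limma adjusted p = 0.3). Without wild type replicate 1 the log2 ratio of *NUP84* was -0.96, and without mutant replicate 2 it was -0.26. The other Y complex genes among the 38 lay between -0.37 and 0.24. *NUP133* had a log2 ratio of 0.24, *NUP120* of 0.22 and *NUP145*, whose product is cut into a repeat protein and a coat subunit, of -0.37. Of the coat subunits with other symbols, *SEH1* had 0.28 and *SEC13*, which also serves vesicle coats, had -0.06. A test of the difference between subunits was not made.

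**Figure D4:**
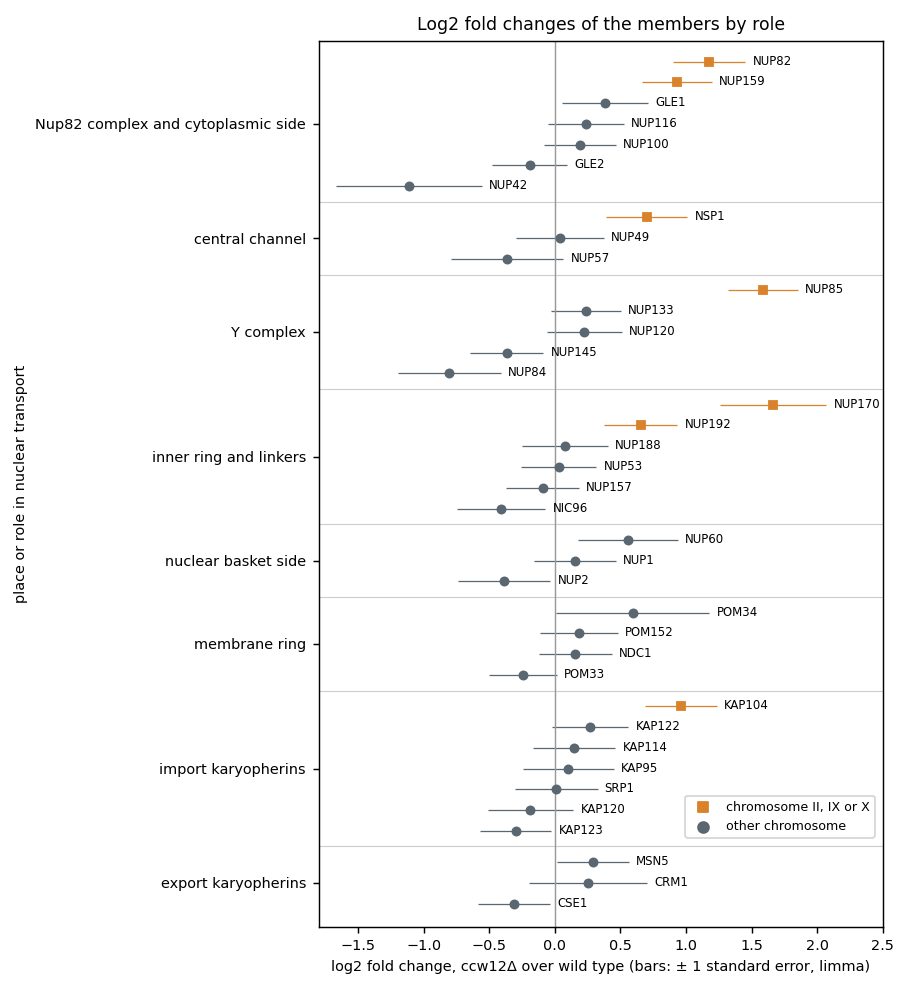
Log2 fold change with its standard error (x axis, limma, 2 arrays per strain) of each gene, grouped by place in the pore or role (y axis); squares mark chromosomes II, IX and X. Within each group that holds such a gene, the squares lie to the right of all circles of that group.

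In the inner ring, *NUP170* has a paralogue on chromosome V, *NUP157*. It had signals of 860.8 and 708.2 on the mutant arrays, against 864.9 and 802.7 for wild type, a log2 ratio of -0.09 ± 0.28 (SE, limma adjusted p = 0.878). The strains overlapped. The log2 ratio of *NUP170* exceeded that of *NUP157* by 1.76, and by 1.11 to 2.41 over the 4 array pairs. An exact permutation test over the 4 arrays gave p = 0.333 (two-sided), the smallest value that 2 arrays against 2 allow. The medians of chromosomes II and V were 0.94 and 0.03. After chromosome centring *NUP170* had 0.74 and *NUP157* had -0.11. *NIC96*, which tethers the channel nucleoporins to the inner ring, had 198.9 and 189.6 on the mutant arrays, against 193.2 and 345 for wild type, with a log2 ratio of -0.41 ± 0.34 (SE). Wild type replicate 2 alone was high. *NUP188* and *NUP53* had log2 ratios of 0.08 and 0.03.

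The paralogues *NUP116* and *NUP100* encode repeat nucleoporins and lie on chromosomes XIII and XI. *NUP116* had signals of 690.4 and 712.3 on the mutant arrays, against 513.5 and 689.2 for wild type, and a log2 ratio of 0.24 ± 0.29 (SE, limma adjusted p = 0.684). *NUP100* had 541.6 and 496.5 on the mutant arrays, against 426 and 485 for wild type, and a log2 ratio of 0.19 ± 0.27 (SE, limma adjusted p = 0.731). In both genes the strains just failed to overlap. The log2 ratios differed by 0.05, and by -0.157 to 0.251 over the array pairs (exact permutation test, two-sided, p = 0.667).

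Around the cytoplasmic platform, *NUP42* had the lowest log2 ratio of all 38 genes, and it rests on 1 array. The stricter filter left this gene out as too dim. This repeat nucleoporin, which binds Gle1p, had signals of 73.9 and 23.3 on the mutant arrays, against 109.8 and 73.3 for wild type. Mutant replicate 1 was level with wild type replicate 2, so the strains overlapped, and the log2 ratio of -1.11 had an SE of 0.56 (limma adjusted p = 0.311). Its log2 ratio was -1.94 without mutant replicate 1, -1.40 without wild type replicate 2 and -0.28 without mutant replicate 2. *GLE1*, coding for the activator of Dbp5p, had 125.5 and 180.8 on the mutant arrays, against 96.3 and 138.9 for wild type, a log2 ratio of 0.38 ± 0.33 (SE). *GLE2*, coding for a partner of Nup116p, had a log2 ratio of -0.19. In the central channel the repeat nucleoporin genes *NUP49* and *NUP57*, both on chromosome VII, had log2 ratios of 0.04 and -0.37, whereas their partner *NSP1* had 0.70. The wild-type signals of *NUP57* were 289.9 and 116.2. Its log2 ratio was -1.03 without wild type replicate 2 but 0.29 without wild type replicate 1.

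The membrane ring and the nuclear basket showed their widest values where the wild-type arrays disagreed. *POM34*, coding for a membrane-spanning nucleoporin, had 684.7 and 327.2 on the mutant arrays, against 172.6 and 570 for wild type. Both strains spanned a wide range, with a log2 ratio of 0.59 ± 0.58 (SE, limma adjusted p = 0.607). *NUP60*, a basket gene, had 418.4 and 399.2 on the mutant arrays, against 402.8 and 191.2 for wild type, a log2 ratio of 0.56 ± 0.38 (SE, limma adjusted p = 0.452). The log2 ratio of *NUP60* was 1.10 without wild type replicate 1 and 0.02 without wild type replicate 2. That of *POM34* was -0.27 without wild type replicate 1 and 1.46 without wild type replicate 2. *NUP1* and *NUP2* had log2 ratios of 0.16 and -0.39. That of *NUP2* was -0.85 without wild type replicate 2 but 0.08 without wild type replicate 1. *POM152*, *NDC1* and *POM33* had 0.18, 0.16 and -0.24. *NDC1* serves the spindle pole body as well as the pore.

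Apart from *KAP104*, the karyopherin genes among the 38 had log2 ratios between -0.31 and 0.29, and none passed the test. *KAP95* and *SRP1*, coding for importin β and importin α, had 0.10 and 0.01. *KAP123*, coding for an import receptor of ribosomal proteins, had -0.30, *KAP120* had -0.19, *KAP114* had 0.15 and *KAP122* had 0.27. Among the export receptors, *MSN5*, which exports phosphorylated proteins, had 0.29, and *CRM1*, the exportin for leucine-rich export signals, had 0.25 at signals of 85 and 40.4 on the mutant arrays, against 41.6 and 58 for wild type. *CSE1*, which returns importin α to the cytoplasm, had -0.31. In the import group 6 of 7 genes were lower in wild type replicate 1 than in replicate 2, as were 55.3% of all genes.

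Probe sets of the same gene did not always behave alike. *NUP170* has 7, *NUP85* 5 and *NUP49* 4, and the other 35 genes have 1 each. All 5 sets of *NUP85* had a positive log2 ratio, from 1.27 to 3.72, and so did 6 of the 7 sets of *NUP170*, from 1.11 to 2.31, the dimmest set being the exception at -0.46. *NUP49* had 0.04 by its brightest set and 0.80 and 1.14 by the next 2. Its second set had signals of 350.6 and 324.3 on the mutant arrays, against 133.7 and 281.8 for wild type. In 3 of its 4 sets, in all 5 of *NUP85* and in 6 of the 7 of *NUP170*, wild type replicate 1 lay below wild type replicate 2. This is the array with the high 3' to 5' ratios. No source used here gives the place of these sets along the transcripts, and the part of that array in their ratios was not tested.

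**Figure D5:**
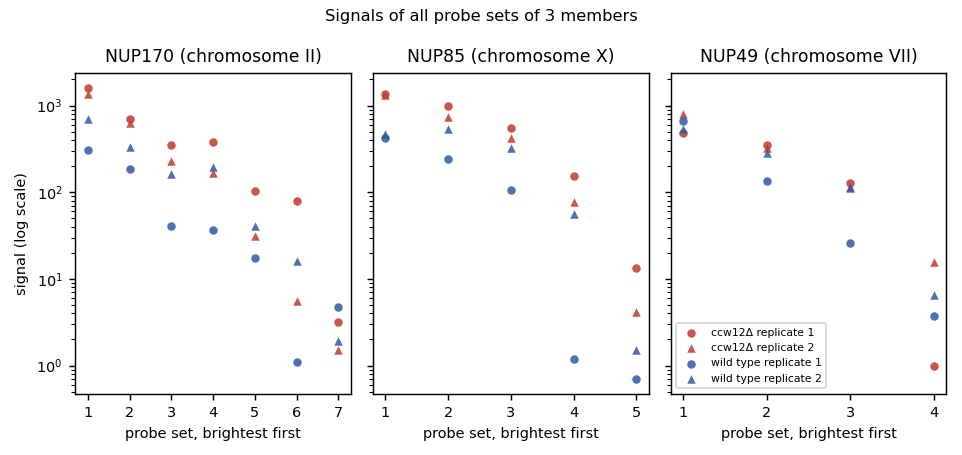
Signal (y axis, log scale) of every probe set of *NUP170*, *NUP85* and *NUP49*, ordered from bright to dim (x axis), on the 4 arrays. Wild type replicate 1 gives the lowest signal in most sets, as in the second set of *NUP49* with 133.7 beside 281.8 in wild type replicate 2.

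Other nuclear transport genes were read from a list of 36 genes with other symbols, of which 35 have a probe set of their own. The test called 0 of the 35 in either direction, beside 2.7% higher and 0.313% lower of all genes. At an unadjusted p under 0.05 from limma 3 were higher (8.57%) and 0 lower, beside 17.1% and 3.48%. By the fold rule *SRC1* and *MOG1* were higher, 2 of 35 beside 10.4% of all genes. *MOG1* on chromosome X, coding for a protein that binds yeast Ran, had 337.5 and 367.7 on the mutant arrays, against 163.8 and 181.9 for wild type, a log2 ratio of 1.03 ± 0.26 (SE, limma adjusted p = 0.0752). The strains lay well apart. *SRC1* on chromosome XIII, coding for an inner nuclear membrane protein, had 149.3 and 116 on the mutant arrays, against 40.3 and 87.1 for wild type, a log2 ratio of 1.15 ± 0.42 (SE, limma adjusted p = 0.172). It was the only one of the 30 listed genes off chromosomes II, IX and X to meet the fold rule. The 5 listed genes on those chromosomes, *MOG1*, *APQ12*, *NMD5*, *MLP2* and *YRB2*, had log2 ratios between 0.37 and 1.03. In all 5 both mutant signals exceeded both wild-type signals, as in 83.3% of all genes of these chromosomes. The 5 had a median of 0.54, beside 0.98 for all genes there, and each lay below the median of its own chromosome. The median of the other 30 was -0.04.

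By role, the 8 genes of the Ran cycle had a median log2 ratio of 0.13, with *GSP1*, coding for yeast Ran itself, at 0.10 and signals of 5363 and 5339 on the mutant arrays, against 3635 and 6877 for wild type. The strains overlapped. The 10 genes of mRNA export, all off chromosomes II, IX and X, had a median of -0.21. Both mutant signals lay below both wild-type signals in 5 of them, beside 14.8% of all genes and 17.2% of genes off those chromosomes. At an unadjusted p under 0.05 from limma 0 of the 10 were higher and 0 lower, so a fall of this group is not shown. The lowest was *THP1*, whose product docks the export machinery at the pore, at -0.62 ± 0.57 (SE), with 221.6 and 60.4 on the mutant arrays, against 147.3 and 213.4 for wild type. *NAB2*, coding for a poly(A)-binding protein and cargo of Kap104p, had 335.7 and 337.4 on the mutant arrays, against 604.9 and 374 for wild type, a log2 ratio of -0.50 ± 0.32 (SE, limma adjusted p = 0.428). Its mutant signals were almost equal, and its spread lay in the wild-type arrays.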

How the data were processed

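RNA of *ccw12*Δ (MEY12A) and wild type (SEY6210) was measured on 4 Affymetrix Yeast Genome S98 arrays, 2 per strain. The authors converted the scans with GCOS. The deposited intensity values are linear, with 1 signal for each probe set, and were scaled per array by MAS5 (named without a version in the submitters' processing notes; no source used here gives the target). Array signals are not counts, and the number of arrays limits the precision. Of 9335 probe sets 60 are controls, 6504 name 1 gene, 328 several and 2443 none in the platform annotation. Names, chromosomes and gene order were taken from RefSeq (assembly R64). The 19 signals of 0 were raised to 0.1 before log2. Each of 5656 genes was represented by its brightest probe set, and 5114 genes whose mean on the log2 scale reached 5.07 (a signal of 33.6), the 25th percentile over all non-control probe sets, were tested with limma 3.58.1 in R 4.3.3 (eBayes with a trend, prior degrees of freedom 5.59, Benjamini-Hochberg over all genes, threshold 0.05). The p-values rest on the spread between 2 pools per strain. The stricter filter is the same percentile over the probe sets that name 1 gene (6.11). The fold rule follows the methods without their Present and Increase or Decrease calls. The script was tested on simulated data. Plots were drawn with matplotlib 3.10.9.

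The genes and lists were chosen with earlier results of these data known. Signals on all arrays are given, by rule, for the genes of chromosomes II, IX and X, those that met the test or the fold rule, the paralogue pairs, and the 3 highest and 3 lowest of the other chromosomes; of the other transport genes, for the 2 highest and 2 lowest. The values of *SEH1* and *SEC13* and the signals of *CRM1*, *GSP1* and the second probe set of *NUP49* were added after their values were seen. The wild-type signals of *NUP57* and the signals of the second probe set of *NUP85* are likewise given outside the rule. The alternatives were quantile normalization, the 3 ways of centring given above, no filter, the 50th percentile, an offset of 7.2, the mean over probe sets, eBayes without trend, the replicate number as a block and each array left out. The stricter filter and the crossed block were added after seeing the data.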

Additional observations from a re-analysis of the deposited data

How the results depend on the processing

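The number of these 38 genes that the test called higher was 1, and it was 0 after median centring, outside centring and chromosome centring, without the filter, and with the mean over probe sets. It was 3 with the filter at the 50th percentile, with the stricter filter and with the replicate block, and in each case these were *NUP170*, *NUP82* and *NUP85*. The replicate numbers have no stated pairing, and the deviations of same-numbered arrays were only weakly and negatively correlated (-0.127 across 5114 genes). The crossed replicate block, added after seeing the data, also called 3. With an array left out, the spread comes from the 2 arrays of the other strain, and the lone array is assumed to vary alike. Calls among the 38 genes in those settings are therefore not read as results. The median log2 ratio on chromosomes II, IX and X then lay between 0.95 and 1.00. Off these chromosomes it lay between -0.04 and 0.11.

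At least 2-fold higher genes numbered 3, and 2 after quantile normalization, after median centring and with the mean over probe sets. They numbered 0 after chromosome centring, and 3 to 4 with an array left out. At least 2-fold lower were 0 genes, 1 after quantile normalization and after outside centring, 2 after median centring, and 0 to 2 with an array left out. The median log2 ratio on chromosomes II, IX and X was 0.96, and 0.84 after quantile normalization, 0.69 after median centring, 0.86 after outside centring and 0.031 after chromosome centring. Off these chromosomes it was 0.08, and -0.10 after quantile normalization and -0.19 after median centring. Of the other transport genes 0 were called in either direction in any setting that kept all 4 arrays. The causes were not tested. Of the 38 genes 22 changed sign in at least 1 setting, *NSP1* and *NUP192* among them after chromosome centring. Over the whole array 138 genes were called higher and 16 lower, against 33 and 6 without the filter, 72 and 19 after quantile normalization, 25 and 14 after median centring, 29 and 8 after outside centring, 8 and 11 after chromosome centring, 78 and 12 without trend, 220 and 22 at the 50th percentile, 240 and 27 with the stricter filter, 332 and 40 with the replicate block and 351 and 49 with the crossed one. With an array left out these were 31 to 1030 and 7 to 457, the highest counts arising without wild type replicate 2.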
